A study of Homo sapiens with 14 samples.

Results

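Shelterin and telomere maintenance genes were followed in IMR90, a widely used line of human lung fibroblasts with a finite replicative lifespan. The set held 9 genes, chosen for their function and not by a threshold on their values: the 6 shelterin genes TERF1, TERF2, TERF2IP, TINF2, POT1 and ACD, together with DKC1, RTEL1 and TERT. The WT and HMGB2 KD libraries listed 54628 genes, of which 15338 could be tested, and the old and young columns listed 57791 genes, of which 15116 could be tested. Of the set, 7 genes were tested in the first comparison and 8 in the second.

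The series held 14 samples of poly(A)-selected RNA in 7 groups, with 2 titled replicates in each. I79 young and I10 young were proliferating cells of 2 isolates of the line, and I79 old and I10 old were the same isolates passaged into replicative senescence, all without a labelled drug or knockdown. I79 ICM was isolate I79 treated with inflachromene (ICM), a compound that targets HMGB1 and HMGB2, which are chromatin proteins. WT and HMGB2 KD were wild type cells and cells in which HMGB2 was depleted by siRNA, and the labels give neither their isolate nor whether WT received a control siRNA. All groups came from 1 cell line in culture, so nothing here describes a tissue. Each old or young group was deposited as 1 column for both titled replicates, and it is not stated whether that column pools the 2 or holds 1 of them, so its values are given as deposited, with no SD. Nothing says whether the paired WT, HMGB2 KD or ICM libraries came from separate cultures, so p-values measure only the spread between these libraries, which may be technical.

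Chromosome ends carry repeats of TTAGGG that shorten with each division in cells without telomerase, and shelterin is the protein complex that coats these repeats and hides them from DNA repair. TERF1 and TERF2 bind the double-stranded repeat, POT1 binds the single-stranded overhang, TINF2 and ACD (the gene of TPP1) bridge them, and TERF2IP (RAP1) rides on TERF2. TERT is the catalytic subunit of telomerase, DKC1 encodes dyskerin, which holds the telomerase RNA and modifies other RNAs, and RTEL1 is a helicase that unwinds telomere loops. Fibroblasts are known for silencing TERT and for entering senescence when telomeres become short.

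Gene totals lay between 33561766 and 41168932 counts in the WT and HMGB2 KD libraries, between 14991385 and 20632959 estimated counts in the old and young columns, and were 13290131 and 10971132 estimated reads in the ICM libraries. Fibroblast markers summed to between 12600 and 33500 CPM, counts scaled to an equal library size, in every library or column. Epithelial markers summed to at most 0.767 CPM, with KRT5 and SFTPC at 0, and the endothelial markers found summed to at most 3.29 CPM, with CDH5 at 0. Immune markers summed to between 24.6 and 160 CPM, with CD3E at 0, and nearly all of this was CD68, a lysosomal gene that is not restricted to immune cells. CD68 rose in old cells by 2.37 on the log2 scale (adjusted p 0.0066, edgeR). The endothelial marker VWF was also higher there, at 0.452 and 2.78 CPM in I79 young and old and at 0.365 and 2.48 CPM in I10 young and old (log2 difference 2.69, adjusted p 0.013). The part of either in the results below was not tested. HMGB2 was checked first as the target of the knockdown: its level was 27.2 and 27.4 CPM (WT) against 3.21 and 3.62 CPM (HMGB2 KD), so it fell by a log2 difference of -2.99, with an SE of 0.16 and an adjusted p of 8.28e-07 by edgeR.

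The estimated shares of POT1-201 and POT1-202 differed between old and young cells, and POT1-202 lacks 1 coding exon of POT1-201. The sequence of that exon is shown here. These transcripts also start at different positions, and reads across the exon's junctions were not examined. Whether use of the exon itself differed was thus not tested. The exon is exon 7 of POT1-201, 131 bases at chr7:124510965-124511095 of GRCh37 on the minus strand. POT1-202 joins its neighbours directly. Capitals mark the exon, and lower case marks the 15 bases of the neighbouring exons on each side, read 5′ to 3′ in the transcript.
POT1-201: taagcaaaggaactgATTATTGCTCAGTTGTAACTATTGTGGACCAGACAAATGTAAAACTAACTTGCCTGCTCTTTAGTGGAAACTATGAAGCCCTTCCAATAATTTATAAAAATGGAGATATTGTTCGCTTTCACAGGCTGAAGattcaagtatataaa
POT1-202: taagcaaaggaactgattcaagtatataaa
The length of the exon is not a multiple of 3, so leaving it out shifts the frame. The annotation (GENCODE v44 lifted to GRCh37) places the POT1-202 start codon downstream, at chr7:124503554-124503556, and gives it 503 codons against 634 in POT1-201. The 131 codons that POT1-202 lacks belong to the amino-terminal end of the protein, where POT1 binds DNA.

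Comparing old with young cells asks which telomere genes differ once fibroblasts have reached replicative senescence. No member of the set passed the call (an absolute log2 fold change over 0.6 at an adjusted p under 0.01), against 9.57% of all 15116 genes tested. DKC1 came closest and was lower in old cells of both isolates. At an adjusted p under 0.05 with the same fold, DKC1 was the 1 member of 8 that passed, against 25.5% of all genes. TERF1 was lower and TERF2IP higher in old cells of both isolates at an adjusted p under 0.05, but by less than 0.6. With DESeq2 neither was under 0.05 (adjusted p 0.28 and 0.074), and TERF1 was not with counts rebuilt from TPM (0.13) or with protein-coding transcripts only (0.059). Over the 8 members the median log2 fold change was -0.22, with 2 higher and 6 lower, and over all genes it was -0.01. At an unadjusted p under 0.05, 3 of the 8 passed with edgeR, against 45.4% of all genes. Old cells of each isolate were also set against young cells without a test: 1 member in I79 and 2 in I10 differed by over 0.6, against 41.4% and 37.3% of all genes.

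TERF1 (chr8:73921091-73960358, plus strand) stood at 33.9 CPM in I79 young and 24.2 in I79 old, and at 32.7 CPM in I10 young and 24.2 in I10 old. Both old columns lay below both young columns. On the log2 scale the difference was -0.44 (SE 0.12, adjusted p 0.047, edgeR). TERF2 (chr16:69389470-69442474, minus strand) stood at 25.7 and 20.2 CPM in I79 young and old, and at 27.5 and 24.2 CPM in I10 young and old. Both old values were again below both young ones, with a log2 difference of -0.25 (SE 0.13, adjusted p 0.2, edgeR). When counts were rebuilt from TPM, a per-length abundance, which weighs reads by transcript length, the TERF2 log2 fold change was -0.62 (adjusted p 0.058).

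TERF2IP (chr16:75681671-75795770, plus strand) went the other way. It stood at 51.5 CPM in I79 young and 66.8 in I79 old, and at 49.2 CPM in I10 young and 74.9 in I10 old, so both old values were above both young ones. The log2 fold change was 0.51 (SE 0.11, adjusted p 0.027, edgeR), and with library totals as the only scaling it was 0.30 (adjusted p 0.081). Within isolates the log2 ratio of TERF2IP was 0.38 in I79 (95% counting interval 0.25 to 0.51) and 0.61 in I10 (0.49 to 0.73). These intervals are exact and cover counting error only.

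TINF2 (chr14:24707492-24711869, minus strand) stood at 31.5 and 28.7 CPM in I79 young and old, and at 33.7 and 27.8 CPM in I10 young and old. Old values were below young ones by little, with a log2 difference of -0.19 (SE 0.12, adjusted p 0.29, edgeR). POT1 (chr7:124462440-124570037, minus strand) stood at 22.8 and 26.6 CPM in I79 young and old, and at 24.2 and 21.2 CPM in I10 young and old. The old and young values overlapped, and the isolates went opposite ways. Its log2 difference of 0.03 (SE 0.16, adjusted p 0.89, edgeR) became -0.18 with library totals and -0.06 with counts rebuilt from TPM. ACD (chr16:67691415-67694713, minus strand) stood at 10.9 and 11.9 CPM in I79 young and old, and at 10.7 and 8.17 CPM in I10 young and old. Here too the isolates went opposite ways and the groups overlapped, with a log2 difference of -0.11 (SE 0.21, adjusted p 0.71, edgeR). Opposite signs in the isolates, seen for these 2 of 8 members, were found for 18.9% of all genes.

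DKC1 (chrX:153991017-154005964, plus strand) stood at 61.9 CPM in I79 young and 37.7 in I79 old, and at 64.3 CPM in I10 young and 35.4 in I10 old. Both isolates lay close to each other in both states, and both old values were far below both young ones. The log2 fold change was -0.77 (SE 0.11, p 0.0011, adjusted p 0.011, edgeR), just outside the call. DKC1 did pass it with DESeq2 (-0.76, adjusted p 0.0059), with library totals (-0.98, adjusted p 0.0016), without a filter on low counts (-0.79, adjusted p 2.94e-06), without the isolate as a covariate (-0.77, adjusted p 0.0062) and with protein-coding transcripts only (-0.83, adjusted p 0.0073). It did not pass with genes of a mean of at least 100 counts (-0.77, adjusted p 0.01, edgeR) or with counts rebuilt from TPM (-0.63, adjusted p 0.059). Within isolates the log2 ratio was -0.71 in I79 (95% counting interval -0.86 to -0.57) and -0.86 in I10 (upper bound -0.72).

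RTEL1 (chr20:62289163-62327606, plus strand) stood at 15.1 and 11.6 CPM in I79 young and old, and at 16.4 and 12.4 CPM in I10 young and old. Both old values were below both young ones, with a log2 difference of -0.38 (SE 0.15, adjusted p 0.12, edgeR). Rebuilt from TPM it was 0.06, so no direction can be given. RTEL1 shares 52.9% of its annotated exonic bases, on the same strand, with the read-through gene RTEL1-TNFRSF6B, and a count for either is uncertain. CCNA2, a proliferation gene listed at 0 in 3 of the 4 old and young columns, is an example that a 0 there can be a failed estimate. TERT (chr5:1253262-1295183, minus strand) had no count in any library or column, which at 3 counts allows at most 0.0729 CPM in the deepest of the WT and HMGB2 KD libraries, for counting error only. TERC, the telomerase RNA, is not reliably captured by poly(A) selection and had between 0 and 2 estimated counts in the old and young columns, at or below the limit that a count of 0 allows.

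**Figure D1:**
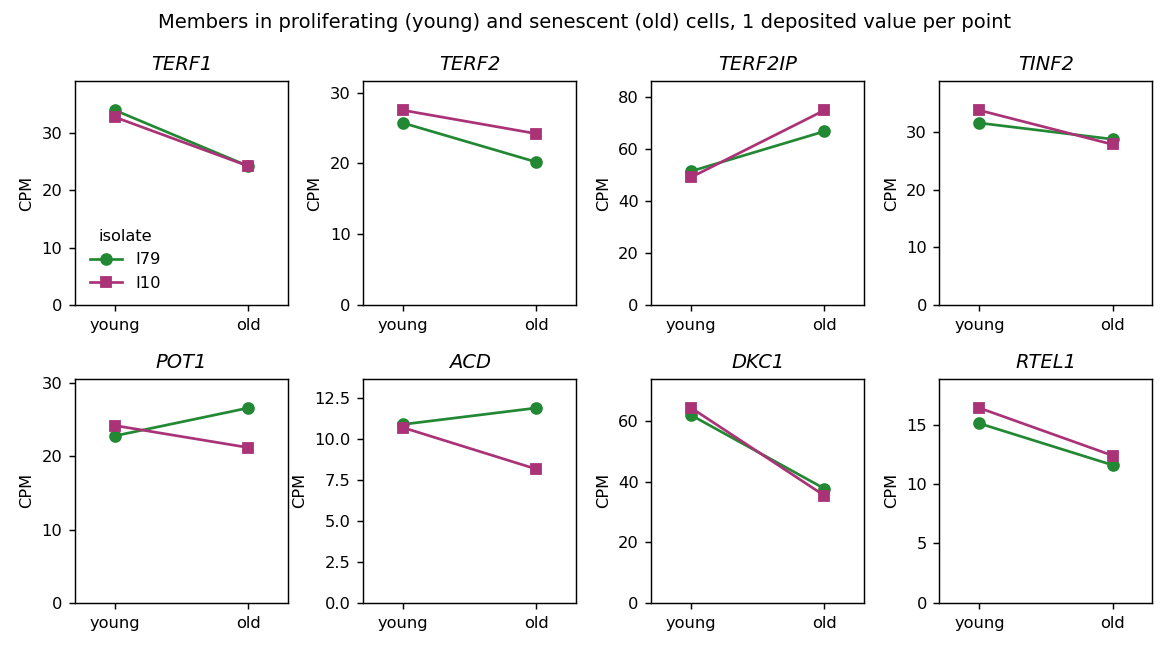
TMM-scaled CPM (vertical axis, from 0) of the 8 detected members in young and old cells, with 1 deposited value per point and a line for each isolate. DKC1 goes from 61.9 to 37.7 CPM (I79) and from 64.3 to 35.4 CPM (I10), TERF2IP goes up in both isolates, and the POT1 and ACD lines go opposite ways.

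Levels per length, in TPM, give the order of the members. DKC1 stood at 43.2 TPM in I79 young and 48.1 in I10 young, and TERF2IP at 42.8 and 42.2. TINF2 followed at 27.8 and 30.9 TPM. TERF1 at 22.9 and 23.5 TPM and TERF2 at 22.2 and 24.9 TPM overlapped between the isolates, so their order cannot be told apart. POT1 stood at 15.2 and 18.9 TPM, ACD at 12.3 and 13 TPM, and RTEL1, the lowest of the detected members, at 7.62 and 9.41 TPM.

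Old cells had another leading gene. TERF2IP stood at 52.1 TPM in I79 old and 55.4 in I10 old, and DKC1 at 30.9 and 21.7 TPM, so TERF2IP led in both isolates. In young cells the order of the 2 cannot be told apart: their main coding transcripts, DKC1-201 and TERF2IP-201, stood at 41.1 and 42.7 TPM in I79 young and at 42.3 and 42.2 TPM in I10 young. TINF2 stood at 23.3 and 20 TPM. TERF1 (16.3 and 15.1 TPM), TERF2 (12.5 and 14.5), POT1 (16.9 and 12.1) and ACD (12.4 and 8.26) lay in ranges that overlapped with a neighbour. RTEL1 was again lowest, at 7.49 and 8.05 TPM. With 1 column a group these levels have no replicate error.

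**Figure D2:**
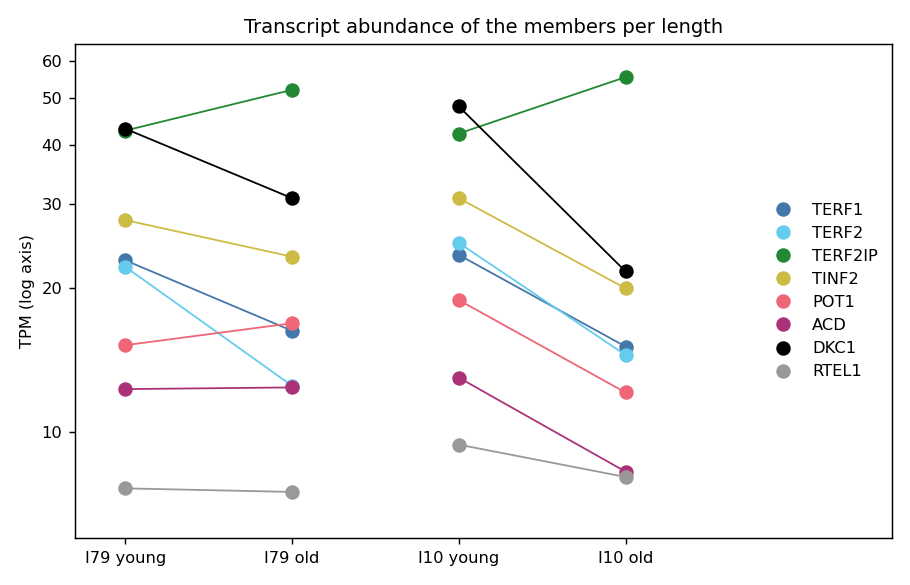
TPM on a log axis for the 8 detected members in I79 young, I79 old, I10 young and I10 old, each point being 1 deposited column and each line joining young to old within an isolate. DKC1 and TERF2IP, at 43.2 and 42.8 TPM in I79 young, separate to 30.9 and 52.1 in I79 old, and TERF2IP lies above DKC1 in both old columns.

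The old and young columns list every transcript, so the members were also followed below the gene level, with no test since each group is 1 column. POT1 is described most fully, and was chosen for this after the shares were seen. POT1-201, the full-length coding transcript, had 133.9 estimated counts in I79 young and 344.2 in I79 old, and 177.1 in I10 young and 286.4 in I10 old. POT1-202, which lacks the exon printed above, had 104.8 and 33.8 in I79 young and old, and 125.8 and 9.3 in I10 young and old. Thus the longer coding form was assigned more reads and the shorter one fewer in old cells of both isolates, while the gene as a whole had a log2 fold change near 0. The share of POT1-202 in the POT1 counts was 29.7% in I79 young and 6.8% in I79 old, and 27.1% in I10 young and 2.4% in I10 old. By share of TPM it was lower by 14.9 percentage points in I79 old and by 13.8 in I10 old. Weighed over all POT1 transcripts that span it, the exon was held by 79.4% of TPM in I79 young and 94.0% in I79 old, and by 83.3% in I10 young and 98.3% in I10 old. POT1-209, annotated as a target of nonsense-mediated decay, kept between 11.9% and 18.5% of the counts.

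**Figure D3:**
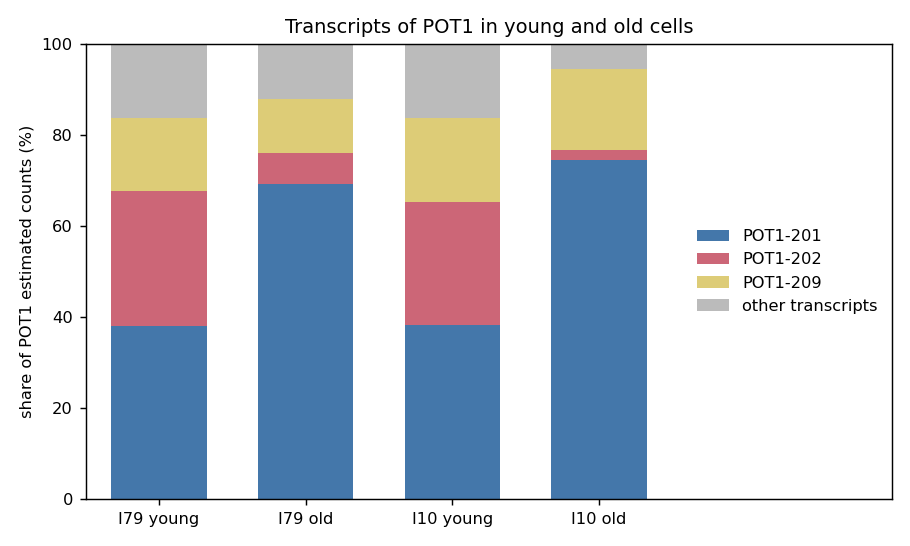
Share of the POT1 estimated counts (vertical axis, percent) assigned to POT1-201, POT1-202, POT1-209 and all other POT1 transcripts in the 4 deposited columns. POT1-201 takes 37.9% and 38.2% in the young columns and 69.3% and 74.4% in the old ones, where POT1-202 is down to 6.8% and 2.4%.

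POT1-202 also starts further upstream than POT1-201, at chr7:124570037 against chr7:124569879, so the assignment of reads to either rests on more than the printed exon. Of 121 exons of the members scanned for use by some transcripts and not by others, 6 differed by over 10 percentage points of TPM in the same direction in both isolates. Neither exons nor transcript shares were scanned over all genes. No background share can thus be set beside these 6 exons or the POT1 shares, and neither is read as particular to the set. The 6 exons lay in POT1 (2, nested in each other), TINF2 (2, also nested in each other), ACD and RTEL1. The ACD exon rested on ACD-208 alone, with 1.5 estimated counts in I79 young and 2.2 in I10 young. TERF1-202 holds a 60-base coding exon that TERF1-201 lacks. That exon was held by 51.5% and 62.0% of TPM in young and old I79 cells and by 52.9% and 57.4% in young and old I10 cells. TERF2-201 took 67.6% and 77.7% of the TERF2 counts in I79 young and old, and 66.8% and 78.8% in I10 young and old. Its share of TPM moved more, from 45.1% to 67.4% and from 43.9% to 66.4%, with short transcripts such as the retained intron TERF2-206 taking 14.8% of TPM from 4.8 estimated counts in I79 young. TINF2-202 took 88.2% and 97.9% of the TINF2 counts in I79 young and old, and 84.1% and 99.7% in I10 young and old. RTEL1-212 had 66.8 and 27.9 estimated counts in the young columns and was listed at 0 in both old ones, and RTEL1-203 held most of the rest. These shares are estimates of the quantifier from few reads, and their error is unknown.

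Genes that work beside the members were counted in lists, to be read against the shares of all genes given above, 9.57% for the call and 25.5% at an adjusted p under 0.05 with the same fold. Of 12 telomerase assembly genes tested, 1 passed the call: RUVBL1, an ATPase of the complex that assembles dyskerin particles, fell by 0.95 on the log2 scale (adjusted p 0.008, edgeR). The list's median was -0.62. Of 7 genes of CST and polymerase alpha primase, which fill in the telomere strand, POLA1, the catalytic subunit of polymerase alpha, fell by 1.63 (adjusted p 0.0058), and the median was -0.01. None of 11 shelterin partners and regulators passed with edgeR or DESeq2, while 2 had an unadjusted p under 0.05, with a median of -0.21. Of 15 genes of end processing and replication helicases, 4 passed and all were lower: EXO1, an exonuclease that resects the end, fell by 2.85 (adjusted p 0.0073), and at adjusted p between 0.0041 and 0.0069 BLM, a helicase (-2.28), FEN1, the flap endonuclease (-2.04), and DNA2, a nuclease and helicase (-1.80), fell too. The median of that list was -0.42. At an adjusted p under 0.05, 7 telomerase assembly genes, 3 of CST and polymerase alpha primase, 1 partner and 6 end processing genes passed, all lower.

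Proliferation genes moved far more in the same columns. Of 17 tested, 14 passed and all were lower, with a median log2 fold change of -2.07. The other gene, CCNA2, could not be tested, at 7.01 CPM in I79 old and 0 in the other columns, although the WT and HMGB2 KD libraries gave it 18.2 to 27.9 CPM. MKI67 (-2.60), AURKB (-2.36), PLK1 (-2.35), CCNB1 (-2.21), TOP2A (-2.20) and MCM3 (-2.17) fell most among those called (adjusted p between 0.0036 and 0.0083). The part that the lower share of dividing cells has in the telomere genes' differences was not tested, and in bulk RNA fewer cells with a transcript and less transcript per cell cannot be told apart.

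The knockdown libraries ask whether these genes differ after siRNA against HMGB2. Since the labels do not say whether WT received a control siRNA, loss of HMGB2 and the siRNA treatment itself cannot be told apart. None of the 7 members tested passed the call, against 5.20% of all 15338 genes. An unadjusted p under 0.05 was found for 1 of the 7, against 23.9% of all genes. That member was TERF1, which was lower in both HMGB2 KD libraries. DESeq2 called none of the members either. The median log2 fold change over the 7 was -0.04, with 3 higher and 4 lower. The libraries of the groups were apart, without overlap, for 4 of the 7 (TERF1, TERF2, TERF2IP and ACD), against 54.0% of all genes, so this share is near the background.

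TERF1 had levels of 36.3 and 36.0 CPM (WT) against 27.3 and 25.1 CPM (HMGB2 KD). Group means were 36.2 ± 0.245 (SD, n = 2) and 26.2 ± 1.56 (SD, n = 2). The log2 difference of -0.45 (SE 0.13, p 0.0042, adjusted p 0.041, edgeR) was short of both thresholds, and its adjusted p ranged from 0.015 to 0.3 over the alternatives, the high values coming where 1 library was left out. TERF2 had levels of 25.4 and 24.8 CPM (WT) against 22.4 and 21.8 CPM (HMGB2 KD), with a log2 difference of -0.17 (SE 0.13, adjusted p 0.5). TERF2IP had levels of 87.9 and 85.3 CPM (WT) against 76.4 and 69.3 CPM (HMGB2 KD), with a log2 difference of -0.24 (SE 0.12, adjusted p 0.26). Unlike in old cells, where it was higher, TERF2IP was lower after knockdown, but the knockdown difference did not pass the test and the 2 comparisons were not tested against each other.

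POT1 had levels of 13.7 and 14.7 CPM (WT) against 19.1 and 11.9 CPM (HMGB2 KD). The HMGB2 KD libraries lay on either side of both WT libraries, and the log2 fold change of 0.14 (adjusted p 0.75, edgeR) turned to -0.25 without HMGB2 KD replicate 1. ACD had levels of 11.3 and 12.5 CPM (WT) against 15.3 and 13.5 CPM (HMGB2 KD), with a log2 difference of 0.28 (SE 0.16, adjusted p 0.3). DKC1, the gene with the largest difference in old cells among the members, had levels of 57.1 and 51.4 CPM (WT) against 50.1 and 54.4 CPM (HMGB2 KD). These values overlapped, and the log2 fold change was -0.04 (adjusted p 0.89). RTEL1 had levels of 1.03 and 1.10 CPM (WT) against 0.979 and 1.35 CPM (HMGB2 KD), from 35 to 54 counts a library, and overlapped as well (0.14, adjusted p 0.89).

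**Figure D4:**
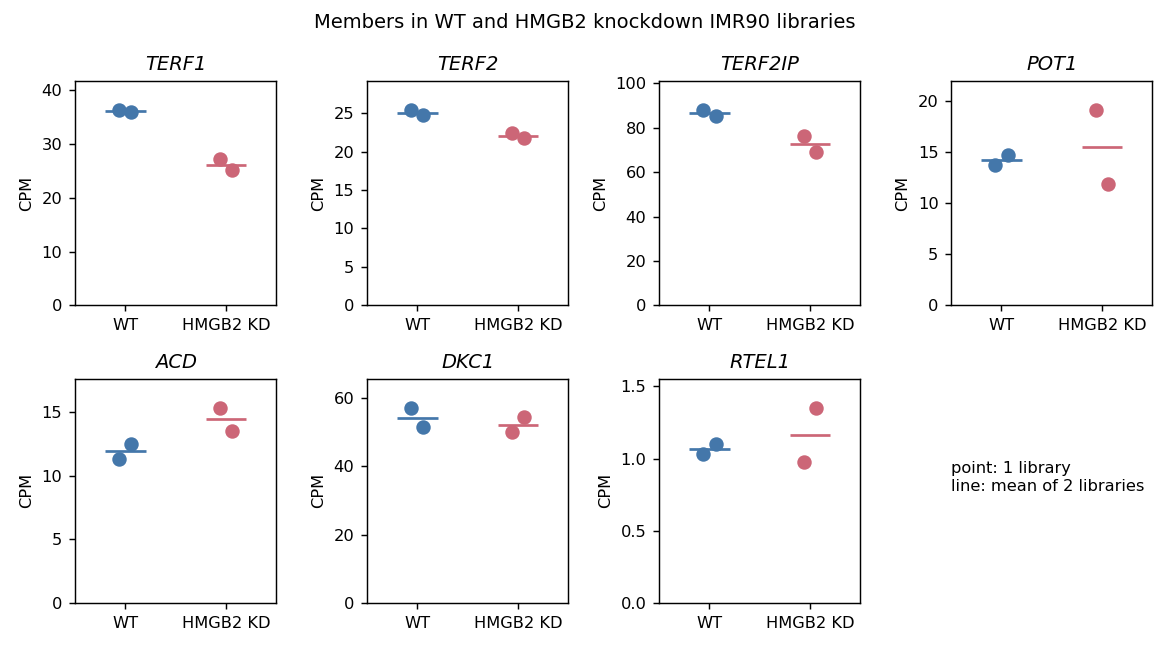
TMM-scaled CPM (vertical axis, from 0) of the 7 members tested in the WT and HMGB2 KD libraries, with 1 point per library and a line at the mean of 2. TERF1 lies at 36.3 and 36.0 CPM without knockdown and at 27.3 and 25.1 after it, while the POT1, DKC1 and RTEL1 points overlap.

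TINF2 and TERT had too few counts to be tested here. TINF2 had 1 and 1 counts in WT and 2 and 8 in HMGB2 KD, although the ICM libraries gave it 604.0 and 552.0 reads. GENCODE places other genes over 27.9% of the exonic bases of TINF2, all on the opposite strand and mostly GMPR2. PARN, a nuclease that trims the telomerase RNA, was likewise at 0.0879 and 0.0805 CPM in WT and between 29.6 and 46.7 CPM in the old and young columns. It was chosen for mention after its values were seen. RTEL1 too stood near 1 CPM in these 4 libraries and above 11 CPM in the old and young columns. Why these genes are so low in the WT and HMGB2 KD files was not tested, so their levels there are not read as levels in the cells.

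Other telomere genes gave no call after knockdown in any list: 0 of 11 telomerase assembly genes (1 at an unadjusted p under 0.05, edgeR), 0 of 6 of CST and polymerase alpha primase (0), 0 of 11 shelterin partners (0) and 0 of 16 end processing genes (2). List medians were -0.16, -0.11, -0.13 and 0.03. Of 18 proliferation genes none passed either (1 at an unadjusted p under 0.05), with a median of 0.00, and DESeq2 called no gene of these lists. Nearness was taken over 3 log2 differences (old against young in I79, the same in I10, and knockdown). The search was within 50 telomere genes, a number that includes the members tested in both fits. The gene nearest to TERF1 was DAXX, at a Euclidean distance of 0.11. The median distance was 0.73, and a nearest gene lies below it by construction. DAXX is another gene with low values in the WT and HMGB2 KD libraries (2.27 to 4.10 CPM, against 68.3 to 97.4 in the old and young columns), so its knockdown difference of -0.35, and this nearness, rest on few reads. To TERF2 it was RLIM (0.15), to TERF2IP it was STN1 (0.17), to DKC1 it was POLA2 (0.18) and to RTEL1 it was FBXO4 (0.14). POT1 and ACD were nearest to each other, at 0.26.

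The ICM libraries were set against I79 young to see where the drug-treated cells lay. Both files were counted in different ways, by region of the transcript in one and by transcript in the other, so treatment and counting cannot be told apart and no test was run. On log2 CPM over shared genes, 4 of the 8 detected members lay past 0.6, TERF2IP above and TERF1, DKC1 and RTEL1 below, against 60.9% of 14607 shared genes. WT cells, which carry no ICM label, were set against I79 young in the same way: 4 of 8 members lay past 0.6, against 44.4% of genes. They were TERF2IP, POT1, TINF2 and RTEL1, and the last 2 are the members whose levels in the WT files are not read as levels in the cells. Without these 2, 2 of 6 lay past 0.6. WT also differed from I79 young outside the set. Of 18 proliferation genes, 14 lay below -0.6 and 2 above 0.6 in WT, with a median of -1.44, and HMGB2 gave -2.22. Cell state and counting thus cannot be told apart in the WT ratios, and WT is not a control for counting alone.

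TERF1 stood at 36.6 CPM in I79 young and at 21.8 and 20.6 in the ICM libraries, a log2 ratio of -0.79, while WT gave 0.04 and I79 old -0.43. All 3 ratios share the I79 young column. DKC1 stood at 67.0 CPM in I79 young and at 42.5 and 45.2 with ICM, a log2 ratio of -0.61, while WT gave -0.24 and I79 old -0.66. TERF2IP stood at 55.7 CPM in I79 young and at 98.7 and 96.1 with ICM, a log2 ratio of 0.80, but WT gave 0.70, nearly as much. RTEL1 stood at 16.3 CPM in I79 young and at 4.17 and 3.56 with ICM, a log2 ratio of -2.06, and its value in WT is no control for the reason given above. The ratio of RTEL1 may thus hold counting as much as treatment, and the 2 cannot be told apart.

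TERF2 (-0.08), TINF2 (0.48), POT1 (0.33) and ACD (-0.18) lay within 0.6 of I79 young with ICM. The reads of leaders and trailers were then left out of the ICM libraries, but not out of I79 young. By that count TINF2 was 0.65, POT1 0.68, TERF1 -0.56 and DKC1 -0.36, so 3 members lay above 0.6 and 1 below. TERF2 changed sign to 0.13 and ACD to 0.50. The 2 sides of these ratios are unlike, and a gene with a larger coding share than other genes rises by construction. Over all genes 61.1% and 61.9% of the ICM reads were coding. ACD was peculiar in its regions: all of its reads in ICM library 1 and 98.3% in library 2 were coding, with none in the trailer, whereas for TERF1 73.9% and 70.5% were coding. Set against I79 old, the ICM libraries gave log2 ratios of -0.35 for TERF1, 0.21 for TERF2, 0.38 for TERF2IP, 0.57 for TINF2, 0.05 for both POT1 and DKC1, -0.36 for ACD and -1.73 for RTEL1. TERT had no read in either ICM library and TERC had 2 and 3.

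**Figure D5:**
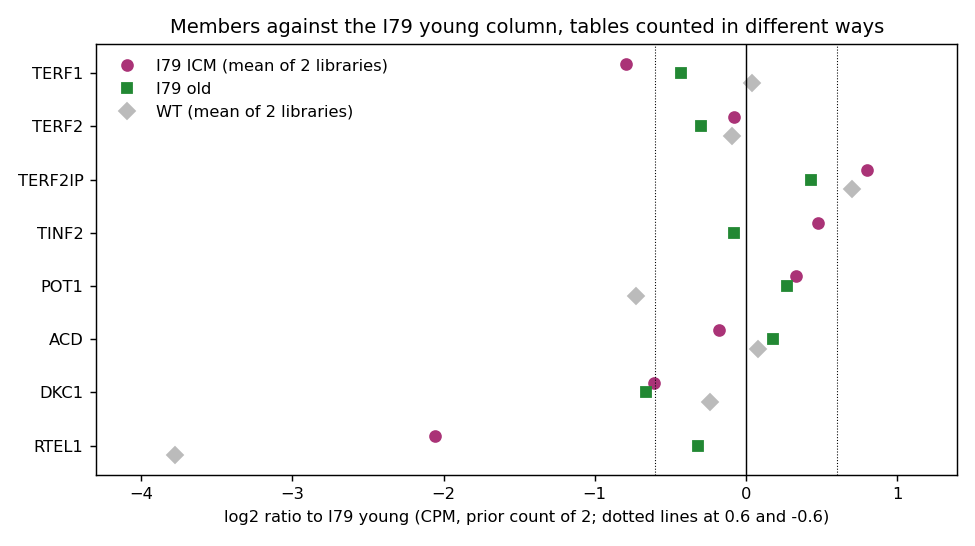
Log2 ratio of CPM to I79 young (horizontal axis) for the 8 detected members in I79 ICM, I79 old and WT, with dotted lines at 0.6 and -0.6; WT is not drawn for TINF2, which had 1 count in each WT library. TERF1 and DKC1 lie left of 0 in ICM and old cells, at -0.79 and -0.61 with ICM, while the WT point of TERF2IP also lies past 0.6, and that of RTEL1 rests on a level that is not read as one in the cells.

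Promoter windows of 300 bases before the annotated start (RefSeq, GRCh38.p14) were found for 7 of the 9 members, 9 windows in all, with none matched for TERF1 or TERF2. The letters GGGCGG (GC box), searched on both strands, were in 8 of the 9 windows, against 45.0% of 35116 promoters. CCAAT was in 2 of 9, both of TINF2 (34.6% of all), CACGTG in 1 (7.26%) and TTTCCCGC in 1, that of ACD (1.63%). Neither TTAGGG (9.05%) nor TTTGGCGC (0.652%) was in any of the 9. These are descriptions of letters and not of binding.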

How the data were processed

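Poly(A)-selected RNA of IMR90 cells was measured. Groups came from the sample titles. Per the labels, the submitters' processing notes name STAR 2.6.0c, featureCounts and GRCh37, while counter settings and strand are not given in the sources used here. Raw counts of each gene were deposited by the authors for the WT and knockdown libraries. Summary rows held 16.9% to 18.0% of their totals and were left out. For old and young cells the authors deposited estimated counts and TPM per transcript (and transcript lengths) in 1 column a group. For ICM they deposited expected counts of reads per gene and region, fractional where shared.

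Estimated counts were summed per gene through GENCODE v44 on GRCh37 (97.7% of transcripts matched) and rounded. The test was that of edgeR 4.0.16 in R 4.3.3: quasi-likelihood test, TMM scaling, filterByExpr, Benjamini-Hochberg adjustment over all genes tested. Calls needed an absolute log2 fold change over 0.6 at an adjusted p under 0.01, as in the study's methods. The SE is the fold change over the square root of F. Old was compared with young over 2 isolates with isolate as a covariate. Within isolates and for ICM (log2 CPM, prior count of 2) no test was run. Intervals are exact 95% Clopper-Pearson ones on the share that the old column took of both columns' reads. DESeq2 1.42.0, other scalings, filters and left-out libraries were alternatives. Replicates were not duplicates: chi-square per degree of freedom was 2.23 between the ICM libraries, 25.1 between the WT and 38.1 between the knockdown ones.

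The members and gene lists were chosen with earlier results of these data known. All 9 members are named whatever their values. Other lists are given by counts, with called genes named up to 6 a list by size of change, plus TERC, HMGB2 as the knockdown check, and the telomere gene nearest to each member. Both designs were tested on simulated data in which 200 genes had a log2 change of 1.5: 66.5% came back for the knockdown (15338 genes, 0 false calls) and 76% for old against young (15116 genes, 13 false calls). All member differences in these fits were smaller than 1.5, so the rates do not say how often changes of their size would be found.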

Additional observations from a re-analysis of the deposited data

Results flagged for a closer look

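For POT1 and ACD the old against young difference went opposite ways in the isolates. POT1 had a log2 ratio of 0.22 in I79 and -0.19 in I10. ACD had 0.13 in I79 and -0.38 in I10. Each isolate has 1 deposited column per state, so the difference between isolates was not tested.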

How the results depend on the processing

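No member was called under any knockdown alternative. The count of all genes called after knockdown, 797, was 1243 with the replicate block and between 312 and 999 with 1 library left out, the lowest without HMGB2 KD replicate 2. The labels do not say what a replicate number shares, and with only 2 pairs the correlation of same-numbered deviations was 0.12, so the block stayed an alternative, and it changed no member's call. With 1 library left out, members that were not called ranged from -0.25 to 0.44 (POT1), from -0.12 to 0.03 (DKC1) and from -0.11 to 0.34 (RTEL1) on the log2 scale. For old against young, 1447 genes were called (869 higher, 578 lower), 3860 at an adjusted p under 0.05, 4251 without a filter and 3130 with library totals (1019 higher, 2111 lower), which moved the median of all genes by -0.21. POT1 was -0.18 with library totals and -0.06 rebuilt from TPM, and RTEL1 was 0.06 rebuilt from TPM. Against ICM, RTEL1 was 1.72 with WT as control, where its count is not read as a level in the cells, and between 3 and 4 members lay past 0.6 with 1 library left out (DKC1 was -0.56 without I79 ICM replicate 1). The cause of these shifts was not tested.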
